A study of Mus musculus with 9 samples.

Results

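miR-122 was followed here through its 2 mature arms, listed in the deposited count table as mmu-miR-122-5p and mmu-miR-122-3p, among 1169 microRNAs (1064 known and 105 predicted). The arms were taken by name, and both are present. The libraries were made from the RNA of extracellular vesicles precipitated from mouse serum, 3 per group. The groups were mice on a high fat diet that overexpress Sirt3 specifically in adipose tissue (HFD Sirt3 AKI), wild-type mice on the same diet (HFD WT) and wild-type mice on chow (chow WT), all male per the series title. Sirt3 is a mitochondrial deacetylase. The promoter that drives its overexpression, the age of the mice, and whether a library is a single mouse or a pool were not found in the labels. The p-values therefore measure only the spread between these libraries, which may be technical. Names of the HFD WT libraries contain a code for a Sirt3 knock-in that is missing from the chow WT names, so diet and a possible difference in mouse line cannot be told apart from the names.

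miR-122 is the dominant microRNA of hepatocytes. It is cut from a hairpin transcribed under liver-enriched transcription factors, and its 5p arm is the guide strand that is loaded into Argonaute, while the 3p arm is the passenger strand. In liver it holds down genes that are silent in mature hepatocytes and is needed for normal cholesterol and fatty acid synthesis. Liver releases it into blood, where its level is widely used as a marker of hepatocyte injury. A serum vesicle library holds RNA of many tissues, so fewer vesicles from a tissue and less miR-122 per vesicle cannot be told apart, and each level is relative to the other microRNAs of the library.

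Libraries differed in depth. The totals were 1729416 to 2973432 counts in HFD Sirt3 AKI, 1953935 to 2162009 in HFD WT and 225002 to 306974 in chow WT. Levels are given as counts per 1000000 of the library total after TMM scaling (trimmed mean of M values), here called normalised CPM. The mean scaling factor was 0.978 in HFD Sirt3 AKI, 0.787 in HFD WT and 1.31 in chow WT, so every comparison between groups depends on the scaling. By their batch label, replicates 2 and 3 of HFD Sirt3 AKI form a batch of their own, and the other 7 libraries form the other. The smaller batch holds no HFD WT or chow WT library, and only HFD Sirt3 AKI replicate 1 can be set against the other groups within a batch.

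Other microRNAs known from liver serve below as measures to which miR-122 can be set, and their mature sequences are shown because related letters limit how they can be read. They are copied from RefSeq (GRCm38.p6), 5′ to 3′, with the seed (bases 2 to 8) in capitals.
miR-192-5p: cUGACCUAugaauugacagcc
miR-215-5p: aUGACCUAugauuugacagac
miR-194-5p: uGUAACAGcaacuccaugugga
miR-148a-3p: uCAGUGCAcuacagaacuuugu
miR-802-5p: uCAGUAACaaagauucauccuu
miR-192-5p and miR-215-5p share a seed and 18 of 21 bases, differing by C1A, A12U and C20A, with positions counted from the 5′ end of miR-192-5p and its base given first. They also have a role in gut epithelium. miR-194-5p comes from 2 hairpins, beside those of miR-192 and miR-215, with identical mature sequence. miR-148a-3p, which lowers LDL receptor in liver, shares its seed with miR-148b-3p and miR-152-3p, and miR-802-5p, which impairs hepatic insulin signalling in obese mice, shares its seed with no other of the 916 known microRNAs matched by name.

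miR-122-5p was high in 2 of the 3 HFD Sirt3 AKI libraries and nearly even in HFD WT. HFD Sirt3 AKI replicates 1, 2 and 3 had 5676, 25944 and 11214 normalised CPM, from 15759, 49071 and 21431 counts. HFD WT had 4758, 4145 and 4497 normalised CPM, from 8559, 6366 and 6779 counts. Chow WT had 5059.5, 6507 and 3370.05 normalised CPM, from 1985, 2495 and 1009 counts. Every HFD Sirt3 AKI library was above every HFD WT library, but replicate 1 only by 1.19 to 1.37 times. The share of all tested microRNAs that separate in this way was not counted. Chow WT overlapped with both other groups, since its replicate 2 exceeded HFD Sirt3 AKI replicate 1.

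**Figure D1:**
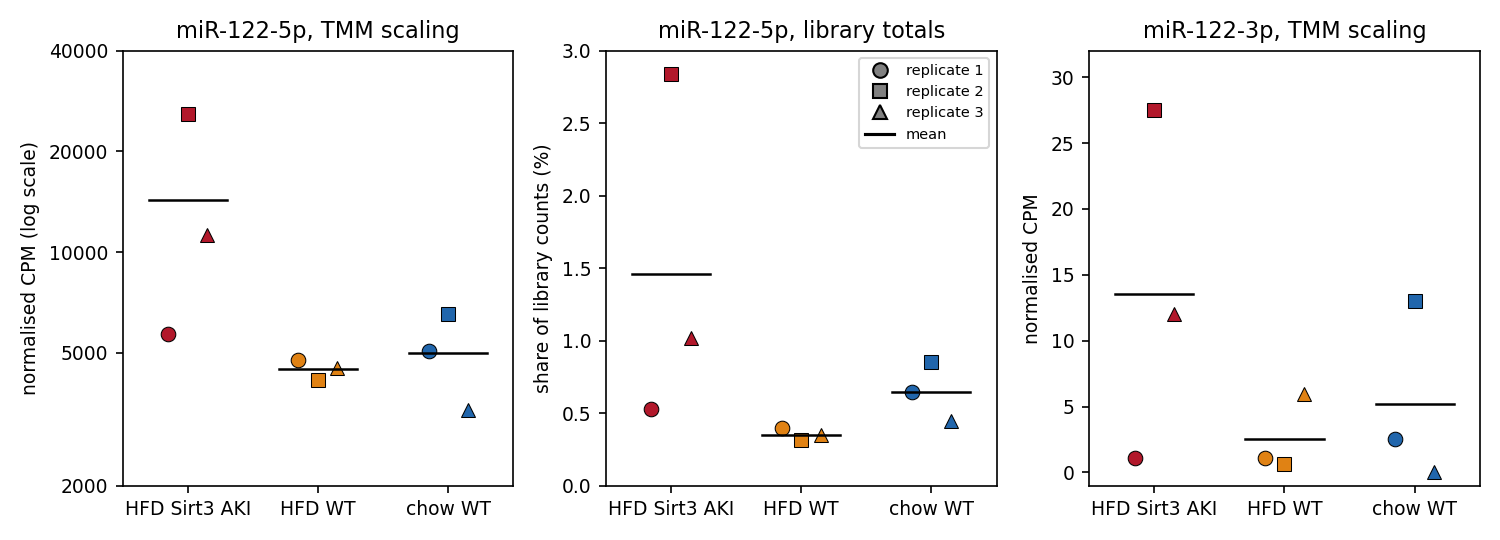
miR-122 in each library, in HFD Sirt3 AKI, HFD WT and chow WT. The left and right panels plot normalised CPM of the 5p arm (log axis) and of the 3p arm, and the middle panel the 5p arm as a percent of library counts; symbols are libraries and bars the mean of 3. HFD Sirt3 AKI replicate 2 is highest in all panels, at 25944 normalised CPM, 2.84% and 27.5 normalised CPM.

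As a share of all counts, with no scaling, the 5p arm took 0.530%, 2.84% and 1.02% of the HFD Sirt3 AKI libraries. It took 0.396%, 0.314% and 0.347% of the HFD WT libraries and 0.647%, 0.851% and 0.448% of the chow WT libraries. The widest Wilson 95% interval of these shares was 0.818% to 0.885%, in chow WT replicate 2, so the gaps between libraries of a group exceeded counting error. Intervals and floors cover counting error only, because PCR reads that carry no molecular identifier are not separate molecules. On this scale HFD WT lay below every chow WT library, which was not so after TMM scaling. By count miR-122-5p stood in places 25, 5 and 18 among the known microRNAs of HFD Sirt3 AKI replicates 1, 2 and 3, in places 35, 34 and 34 in HFD WT, and in places 27, 22 and 37 in chow WT.

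The comparison of HFD Sirt3 AKI with HFD WT asks what adipose Sirt3 changes under the same diet. miR-122-5p rose, with a mean of 14278 ± 10476 normalised CPM in HFD Sirt3 AKI and 4467 ± 308 in HFD WT (SD, n = 3 each), a ratio of means of 3.196. Its log2 fold change was 1.68, with SE 0.44, a 95% interval of 0.70 to 2.65 and an edgeR adjusted p of 0.0412. This fit shares a common spread over all groups, chow WT included, although the log2 standard deviation was 1.10 in HFD Sirt3 AKI and 0.10 in HFD WT. A fit of only these groups gave 1.82 (edgeR adjusted p = 0.107). In this comparison 8.94% of the 414 tested microRNAs were called at an adjusted p below 0.05, and 1.45% were called higher, so miR-122-5p was among 6 that rose. That number depended on the scaling and tool, at 10 with DESeq2 size factors, 36 with library totals and 38 by DESeq2. Other values for miR-122-5p spread widely, with edgeR or other-tool adjusted p from 6.91e-22 to 0.733 over 19 alternatives, of which 8 kept the call. The smallest came from the fit without a filter, where the SE was 0.16. The next was 5.28e-04 by edgeR, without HFD Sirt3 AKI replicate 1. That fit leaves HFD Sirt3 AKI only in the smaller batch and HFD WT only in the larger, so genotype and batch cannot be told apart in it.

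The size of the increase rested on the libraries of the smaller batch. Without HFD Sirt3 AKI replicate 2 the log2 fold change was 0.93 (edgeR adjusted p = 0.0135). In the larger batch alone, with HFD Sirt3 AKI replicate 1 as the only library of its group and assumed to vary like the others, it was 0.48 (95% interval 0.07 to 0.90, edgeR adjusted p = 0.199). With the batch label as a term it was 0.35 (95% interval -0.45 to 1.14, edgeR adjusted p = 0.733). The call was also lost without chow WT replicate 1 (1.69, adjusted p = 0.0755) or 2 (1.67, adjusted p = 0.0657), without HFD WT replicate 1 (1.71, adjusted p = 0.107), 2 (1.63, adjusted p = 0.147) or 3 (1.69, adjusted p = 0.146), and without HFD Sirt3 AKI replicate 3 (1.83, adjusted p = 0.0568). The direction was upward in all 19 alternatives. Batch and the higher level of replicates 2 and 3 cannot be told apart.

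**Figure D2:**
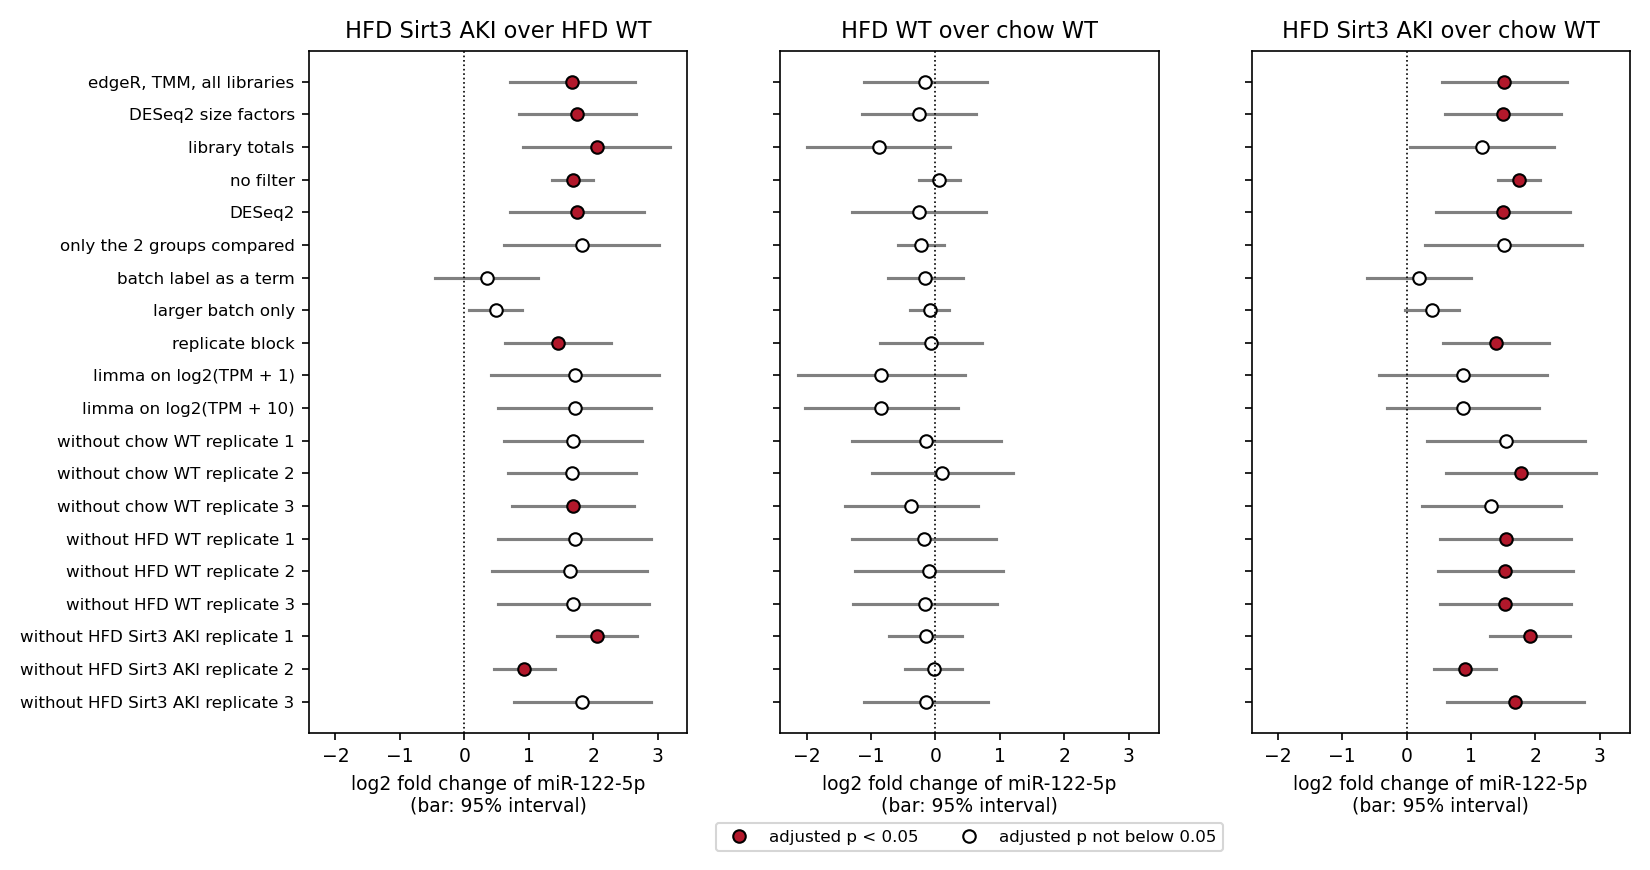
Log2 fold change of miR-122-5p in each comparison (panels) under each way of processing the counts (rows). Points are estimates, bars 95% intervals, and filled points have an adjusted p below 0.05; in HFD Sirt3 AKI over HFD WT the estimate is 1.68 with all libraries, 0.48 in the larger batch and 0.35 with the batch label as a term.

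Setting HFD WT against chow WT asks what the diet changes. miR-122-5p had 4467 ± 308 normalised CPM in HFD WT and 4979 ± 1569.96 in chow WT (SD, n = 3 each), and did not pass the test (log2 fold change -0.16, SE 0.43, edgeR adjusted p = 0.813). The 95% interval of -1.11 to 0.79 includes changes of more than 1 log2 unit downward, in a fit that shares a common spread over all groups. A fit of only these groups gave -0.22 (95% interval -0.58 to 0.13). Without HFD Sirt3 AKI replicate 2 the interval was -0.47 to 0.41, and with library totals it was -1.99 to 0.23. Whether a decrease of 1 log2 unit lay within the interval thus depended on the fit and the scaling. In this comparison 37.7% of the tested microRNAs were called, 21.5% higher and 16.2% lower. With library totals the log2 fold change of miR-122-5p was -0.88 (SE 0.50, edgeR adjusted p = 0.204), while the median of all tested microRNAs moved to -0.57, against 0.15 with TMM. The distance of miR-122-5p from that median was thus similar on both scales.

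HFD Sirt3 AKI and chow WT differ in both diet and genotype. miR-122-5p rose in this comparison, with means of 14278 ± 10476 normalised CPM in HFD Sirt3 AKI and 4979 ± 1569.96 in chow WT (SD, n = 3 each) and a log2 fold change of 1.52 (95% interval 0.55 to 2.49, SE 0.44, edgeR adjusted p = 0.0172). Here 39.9% of the tested microRNAs were called, 20.3% higher and 19.6% lower. The call was lost with library totals (1.17, adjusted p = 0.0885), in the larger batch (0.39, adjusted p = 0.140) and when batch was added to the model (0.19, adjusted p = 0.731), and 11 of 19 alternatives kept it, with adjusted p from 2.57e-24 to 0.731. The smallest adjusted p again came from the fit without a filter (SE 0.16), and the next was 1.22e-04 by edgeR, without HFD Sirt3 AKI replicate 1. There too the compared groups share no batch. Leaving out chow WT replicate 1 or 3 gave 1.55 (adjusted p = 0.0608) and 1.31 (adjusted p = 0.0636), and leaving out HFD Sirt3 AKI replicate 2 gave 0.90 (adjusted p = 0.00390). The 3 comparisons share libraries in pairs and are not independent of each other.

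miR-122-5p was unusually uneven within 2 of the groups. Its standard deviation on the log2 scale was 1.10 in HFD Sirt3 AKI, 0.10 in HFD WT and 0.479 in chow WT. Among microRNAs with a mean of at least 1000 normalised CPM in the group, the median standard deviation was 0.214 over 77 microRNAs in HFD Sirt3 AKI, 0.112 over 80 in HFD WT and 0.10 over 80 in chow WT. miR-122-5p ranked 3rd from the most variable in HFD Sirt3 AKI, 48th in HFD WT and 1st in chow WT. In the order of group means it stood at place 13 of 406 in HFD Sirt3 AKI, between miR-92a-3p at 20794 ± 3669 and let-7f-5p at 13819 ± 1362.5 normalised CPM. It stood at place 35 in HFD WT, between miR-342-3p at 4476 ± 523 and miR-30e-5p at 4002 ± 340.07 (SD, n = 3). In chow WT it stood at place 27, between miR-425-5p at 5075 ± 361 and miR-30a-5p at 4976 ± 357. Except for miR-30e-5p in HFD WT, the gaps to these neighbours were smaller than the larger standard deviation of each pair, so the exact place is not resolved.

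The passenger arm miR-122-3p was scarce in every library and, like the guide arm, was highest in HFD Sirt3 AKI replicate 2. HFD Sirt3 AKI replicates 1, 2 and 3 had 3, 52 and 23 counts, HFD WT had 2, 1 and 9, and chow WT had 1, 5 and 0. In normalised CPM these were 1.08, 27.5 and 12.04 in HFD Sirt3 AKI, 1.11, 0.651 and 5.97 in HFD WT, and 2.55, 13.0 and 0 in chow WT. The groups overlapped in every comparison. In HFD Sirt3 AKI over HFD WT the log2 fold change was 2.35 (SE 1.09, 95% interval -0.05 to 4.76, edgeR adjusted p = 0.192), in HFD WT over chow WT -1.10 (SE 1.52, adjusted p = 0.623), and in HFD Sirt3 AKI over chow WT 1.26 (SE 1.28, adjusted p = 0.473). In the larger batch the first of these was -1.02 (adjusted p = 0.778) and the third was -2.05 (adjusted p = 0.340), so both signs turned without the smaller batch. The first reached an edgeR adjusted p of 0.0166 without HFD Sirt3 AKI replicate 1, at 2.93, where genotype and batch cannot be told apart. Its adjusted p, where one was given, ran from 0.0118 to 0.778 over 17 alternatives. The second turned to 0.80 (adjusted p = 0.837) without chow WT replicate 2.

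The passenger arm made up a very small share of miR-122 reads in every group. Summed over libraries it was 78 of 86339 reads of both arms in HFD Sirt3 AKI (0.0903%, Wilson 95% interval 0.0724% to 0.113%), 12 of 21716 in HFD WT (0.0553%, 0.0316% to 0.0966%) and 6 of 5495 in chow WT (0.109%, 0.0501% to 0.238%). In single libraries it was 0.0190%, 0.106% and 0.107% in HFD Sirt3 AKI, and 0.0234%, 0.0157% and 0.133% in HFD WT. In chow WT it was 0.0504% and 0.20% in replicates 1 and 2, and 0 of 1009 reads in replicate 3, which allows up to 0.297% (3 counts). The log2 ratio of 3p to 5p, with 0.5 added to each count, differed by 0.48 between HFD Sirt3 AKI and HFD WT (exact two-sided permutation p = 1) and by -1.03 between HFD WT and chow WT (p = 0.4, exact). With 3 libraries against 3 this test cannot go below 0.1. The passenger arm miR-148a-5p was a larger share of its pair in each group, at 1.35% in HFD Sirt3 AKI, 0.765% in HFD WT and 1.61% in chow WT. That of miR-192-3p was larger than that of miR-122-3p at 0.322% in HFD Sirt3 AKI and 0.317% in HFD WT, but not at 0.0905% in chow WT, where it had 7 counts. The microRNA miR-122b-5p, whose RefSeq gene overlaps that of miR-122, had 1 count in HFD Sirt3 AKI replicate 2, 2 counts in HFD WT replicate 1 and 0 in the other libraries.

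The other liver microRNAs did not follow miR-122-5p in every comparison. The hepatocyte list holds 13 microRNAs, 9 of them tested and all 13 with a count in some library; miR-802-5p, miR-802-3p, miR-194-1-3p and miR-194-2-3p were too scarce to test. In HFD Sirt3 AKI over HFD WT, miR-122-5p was the 1 tested member that rose and 0 fell, with a list median of 0.50 against -0.02 over all tested microRNAs. With library totals 3 members rose, miR-122-5p, miR-192-5p and miR-215-3p, with a list median of 0.84 against 0.27 over all tested, of which 36 were called higher and 11 lower. With TMM, miR-192-5p had a log2 fold change of 0.47 (edgeR adjusted p = 0.105), miR-194-5p 0.29 (adjusted p = 0.332), miR-148a-3p -0.03 (adjusted p = 0.948) and miR-215-3p 0.95 (adjusted p = 0.0519). In the larger batch miR-215-3p was the 1 called member (1.29, edgeR adjusted p = 0.00727) and miR-122-5p was not called.

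In HFD WT over chow WT the liver list moved in opposite directions, with 3 increases, 1 decrease and 5 not passing among 9 tested, where 21.5% of all tested microRNAs were called higher and 16.2% lower. miR-192-5p fell, at 2612, 2949 and 3046 normalised CPM in HFD WT, against 7491, 6807 and 7285 in chow WT (log2 fold change -1.33, SE 0.17, edgeR adjusted p = 1.13e-04). miR-215-5p, which shares its seed, rose, at 359, 439.5 and 381 normalised CPM in HFD WT, against 81.6, 112 and 66.8 in chow WT (2.17, SE 0.23, adjusted p = 3.14e-05). Neither set of libraries overlapped with the other group, and the share of all tested microRNAs without overlap was not counted. miR-148a-3p rose (1.08, SE 0.26, edgeR adjusted p = 0.00765), as did miR-215-3p (0.92, SE 0.33, adjusted p = 0.0469), and neither was called with library totals (0.35 and 0.20). The list median was -0.04, against 0.15 over all tested microRNAs, and with library totals 1 member rose, 2 fell and the median was -0.75, with 20 of all 414 called higher and 143 lower. In HFD Sirt3 AKI over chow WT 4 members rose, 1 fell and 4 did not pass, where 20.3% of all tested were called higher and 19.6% lower (median 1.05, against 0.06 over all tested). The members that rose were miR-122-5p, miR-148a-3p, miR-215-5p and miR-215-3p, and miR-192-5p fell. With library totals 2 rose and 1 fell, with 40 of all tested called higher and 130 lower.

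**Figure D3:**
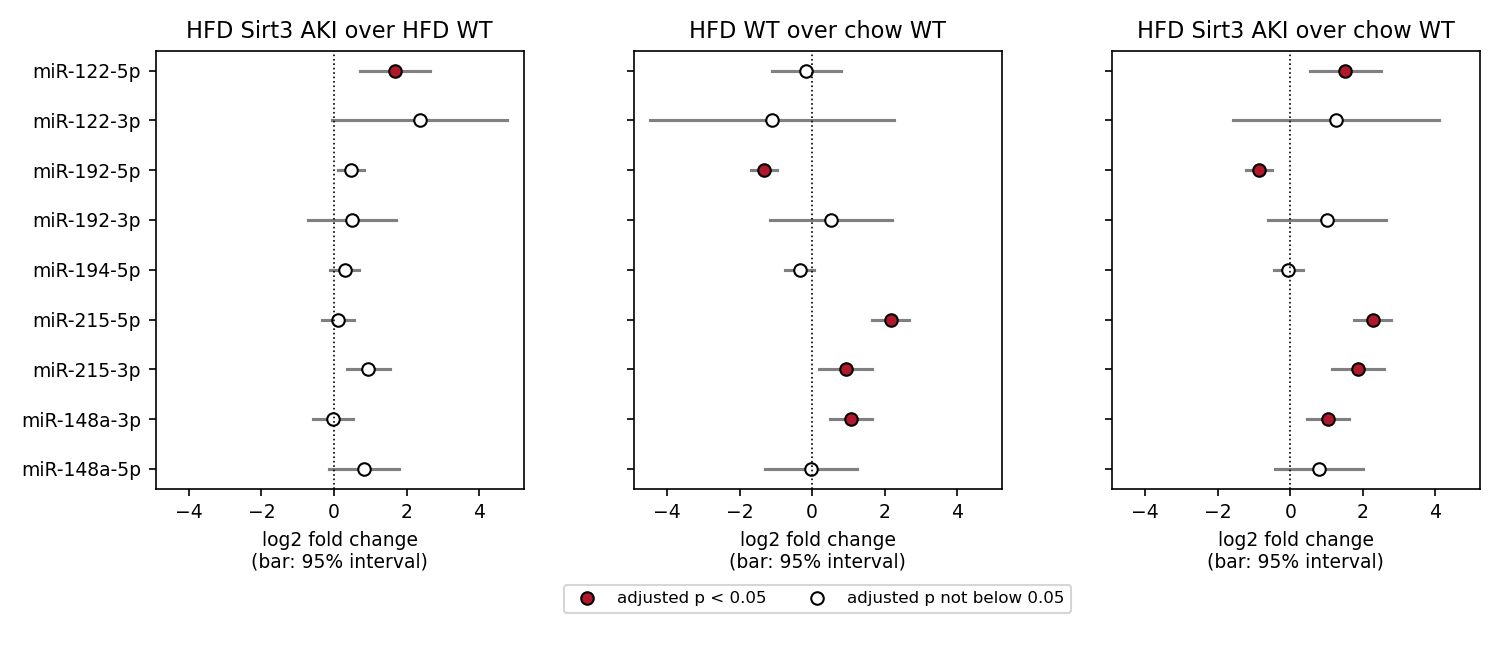
Log2 fold changes of the 9 tested microRNAs of the hepatocyte list in the 3 comparisons (panels). Points are estimates, bars 95% intervals and filled points have an edgeR adjusted p below 0.05; miR-122-5p is the filled point in HFD Sirt3 AKI over HFD WT, while miR-192-5p (-1.33) and miR-215-5p (2.17) stand apart in HFD WT over chow WT.

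miR-802-5p, also made by hepatocytes, was too scarce for the test but was highest in the same libraries as miR-122-5p. It had 9, 30 and 14 counts in HFD Sirt3 AKI replicates 1, 2 and 3, 5, 1 and 3 counts in HFD WT, and 1, 1 and 0 counts in chow WT. In normalised CPM it stood at 3.24, 15.9 and 7.33 in HFD Sirt3 AKI, and at 0.651 to 2.78 in HFD WT. All HFD Sirt3 AKI libraries were above all HFD WT libraries, with no test and no count of how many microRNAs separate in this way. The other list members too scarce to test did not all follow. miR-802-3p had 0.720, 8.46 and 1.57 normalised CPM in HFD Sirt3 AKI and 0 to 0.663 in HFD WT, but 7.65 in chow WT replicate 1. Mean levels were lower in HFD Sirt3 AKI than in HFD WT for miR-194-1-3p (0.473 against 0.741) and miR-194-2-3p (0.879 against 1.504). All of these rest on few counts. Summed over the 11 list members other than miR-122, the level was 4933, 7866 and 5608 normalised CPM in HFD Sirt3 AKI, 4455 to 5130 in HFD WT, and 8152 to 8809 in chow WT. The sum rests mainly on miR-192-5p.

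Ratios of counts within a library do not depend on the scaling, and they set miR-122-5p against its neighbours directly. Relative to miR-148a-3p, miR-122-5p counts were 7.88, 16.2 and 13.3 times as many in HFD Sirt3 AKI, 4.84, 3.56 and 4.16 times in HFD WT, and 9.93, 11.7 and 7.36 times in chow WT. HFD WT lay below both other groups without overlap. The mean log2 ratio differed by 1.52 for HFD Sirt3 AKI minus HFD WT and by -1.19 for HFD WT minus chow WT (exact two-sided permutation p = 0.1 for each, the smallest possible). Relative to miR-192-5p the order was another, with ratios of 1.81, 5.08 and 3.06 in HFD Sirt3 AKI, 1.82, 1.41 and 1.48 in HFD WT, and 0.675, 0.956 and 0.463 in chow WT. HFD WT was above chow WT without overlap (difference 1.22, exact permutation p = 0.1), while HFD Sirt3 AKI replicate 1 fell within HFD WT (difference 0.97, p = 0.2, exact).

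Relative to miR-194-5p, the ratio was 11.7, 35.7 and 20.7 in HFD Sirt3 AKI, 10.8, 7.95 and 9.47 in HFD WT, and 7.43, 10.3 and 6.68 in chow WT. HFD Sirt3 AKI was above HFD WT without overlap (difference 1.14 log2 units, exact permutation p = 0.1), and HFD WT overlapped with chow WT (difference 0.22, p = 0.4, exact). Relative to miR-215-5p, the ratio was 11.4, 80.7 and 25.1 in HFD Sirt3 AKI, 13.3, 9.43 and 11.8 in HFD WT, and 62.0, 58.0 and 50.45 in chow WT, with a difference of -2.29 for HFD WT minus chow WT (exact permutation p = 0.1). Over the 21 differences of ratios computed, the smallest Benjamini-Hochberg adjusted p was 0.263, so none passed. In HFD WT over chow WT the direction for miR-122-5p thus depended on the liver microRNA it was set against, while in HFD Sirt3 AKI over HFD WT the difference of means was positive against each of these 4. Against miR-215-5p that difference was 1.32 with overlap (exact permutation p = 0.3), since replicate 1 of HFD Sirt3 AKI lay within HFD WT. In the larger batch, which leaves replicate 1 alone, the difference was 0.22 against miR-192-5p and 0.92 against miR-148a-3p, and without replicate 2 it was 0.60 and 1.30. Against miR-215-5p the log2 ratio of replicate 1 was 3.513 and the HFD WT mean 3.508, and against miR-194-5p these were 3.545 and 3.219. miR-148a-3p itself had a log2 fold change of -0.44 in the larger batch and -0.43 without replicate 2 (edgeR adjusted p = 0.0405 for the latter).

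**Figure D4:**
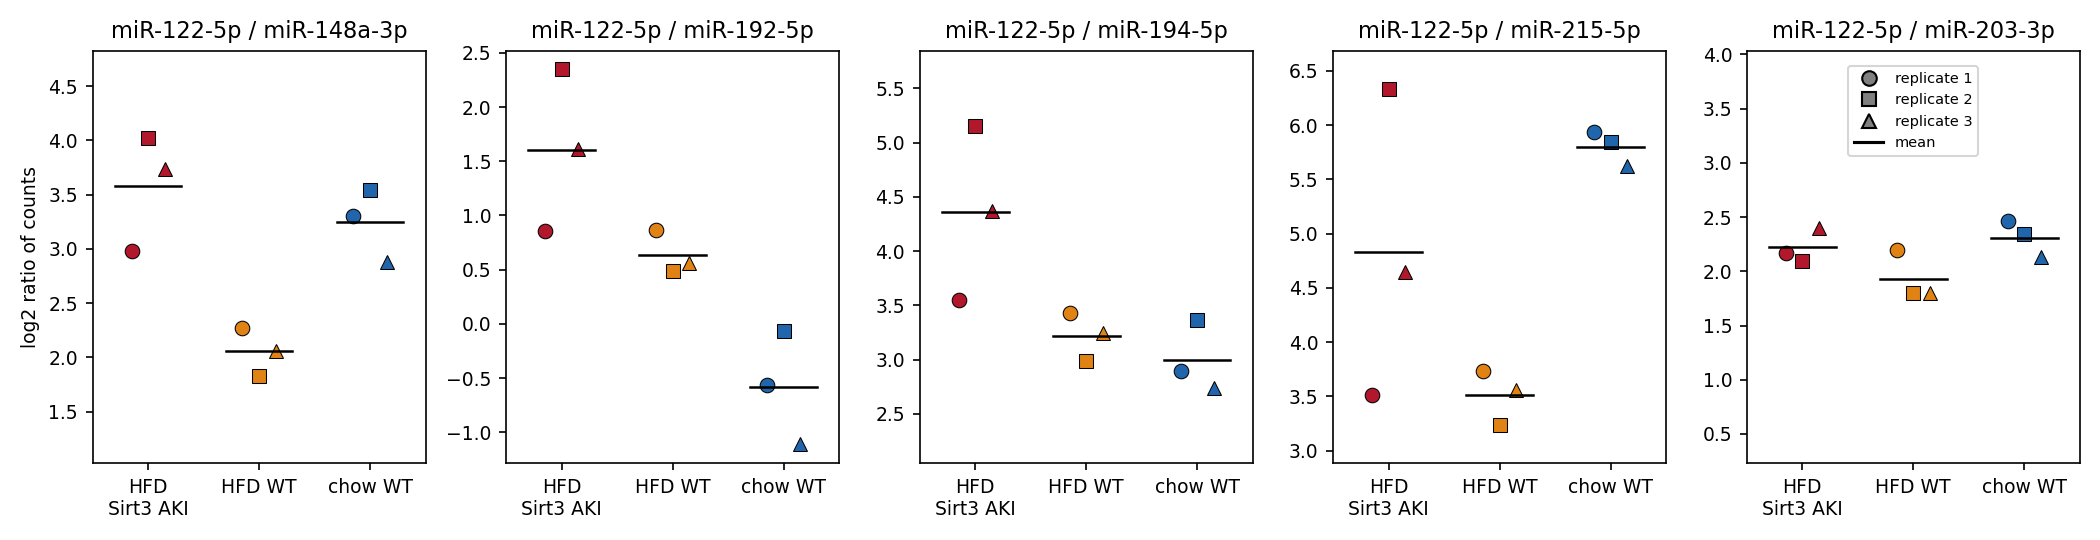
Log2 ratio of miR-122-5p counts to those of 5 other microRNAs in each library of HFD Sirt3 AKI, HFD WT and chow WT. Symbols are libraries, bars the mean of 3, and each panel spans the same range of log2 units; HFD WT is lowest against miR-148a-3p and chow WT is lowest against miR-192-5p, while the ratio to miR-203-3p stays between 1.80 and 2.46 in all 9 libraries.

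The microRNAs whose log2 level was most like that of miR-122-5p over the 9 libraries were, among 400 known tested candidates, miR-203-3p (Pearson r = 0.966, Spearman rho = 0.733), miR-182-5p (r = 0.942), miR-34a-5p (r = 0.934), miR-127-3p (r = 0.926), miR-872-5p (r = 0.919) and miR-143-3p (r = 0.900). These were picked as the highest values, so no p is given. The likeness rested on HFD Sirt3 AKI replicates 2 and 3, the libraries farthest from the median, and without them r was 0.648 for miR-203-3p and 0.407 to 0.556 for the other 5. miR-203-3p is a microRNA of skin and other stratified epithelia. It had 1258, 6081 and 2125 normalised CPM in HFD Sirt3 AKI, 1040.18, 1186 and 1288 in HFD WT, and 918, 1281 and 768 in chow WT. Counts of miR-122-5p were 3.49 to 5.51 times those of miR-203-3p in all 9 libraries. In HFD Sirt3 AKI over HFD WT miR-203-3p did not pass the test (log2 fold change 1.43, SE 0.46, edgeR adjusted p = 0.0754).

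**Figure D5:**
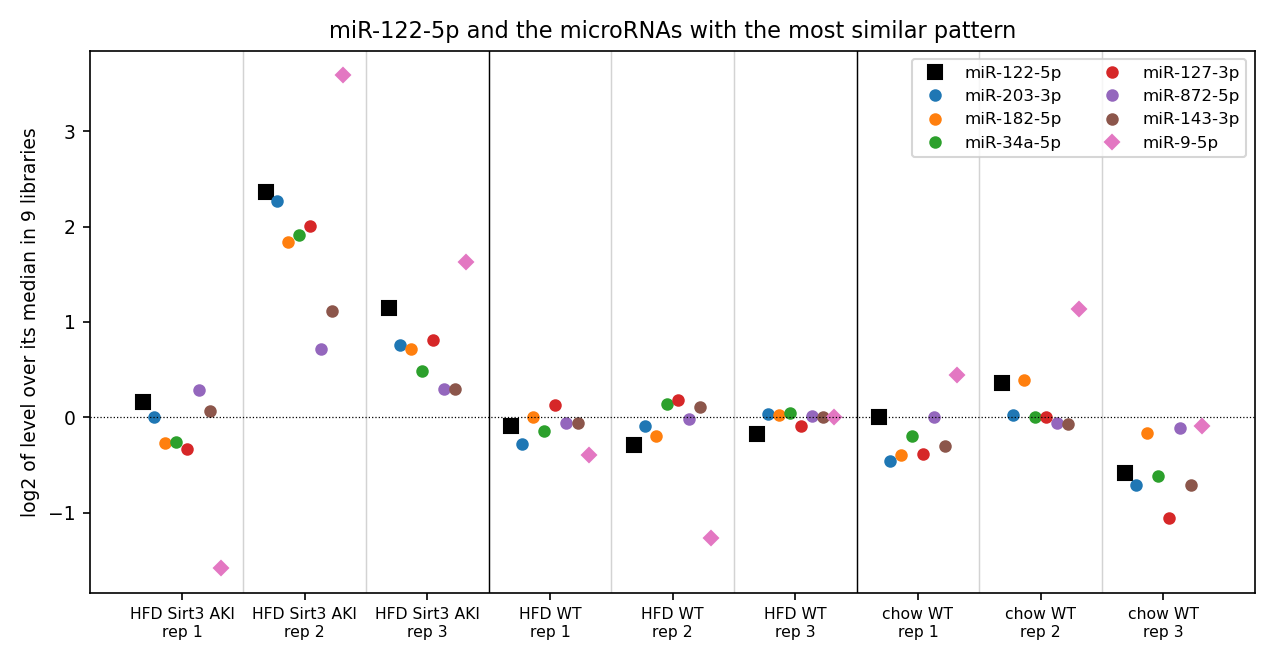
Levels of miR-122-5p (black squares), the 6 microRNAs most like it, and the brain microRNA miR-9-5p (diamonds) in the 9 libraries, as log2 of normalised CPM over each microRNA's own median. All of these microRNAs are highest in HFD Sirt3 AKI replicate 2, and the HFD WT libraries lie close to 0 except for miR-9-5p.

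Some markers of other tissues moved with the same library. miR-9-5p, a microRNA of brain, had 105, 3754 and 968 normalised CPM in HFD Sirt3 AKI, 239, 131 and 313 in HFD WT, and 426, 686 and 294 in chow WT. The order of replicates within HFD Sirt3 AKI was the same as that of miR-122-5p, and so was the order within chow WT. Within HFD WT the order differed. Of the 414 tested microRNAs, 32.9% had that order in HFD Sirt3 AKI, 22.0% had that in chow WT and 9.42% had both. Counts of miR-122-5p were 6.91 to 54.2 times those of miR-9-5p over the 9 libraries. The summed brain list, 7 of 7 tested, stood at 4524, 8695 and 5435 normalised CPM in HFD Sirt3 AKI, 3867 to 4167 in HFD WT and 2639 to 3396 in chow WT. Much of its rise from replicate 1 to replicate 2 was that of miR-9-5p. In replicate 2, miR-9-5p, miR-9-3p, miR-124-3p and miR-137-3p each had at least 2 times the level of every other library. Over the HFD Sirt3 AKI libraries miR-132-3p spanned 117 to 280 normalised CPM. miR-128-3p spanned 4160 to 4242 there and miR-219a-5p 25.6 to 32.3, so neither showed such a rise. The summed epithelial list, 8 of 8 tested, stood at 7290.3, 16039 and 9146 in HFD Sirt3 AKI, 4411 to 5759 in HFD WT and 10975 to 12341 in chow WT. Much of its rise from replicate 1 to replicate 2 was that of miR-203-3p, already picked above as most like miR-122-5p. Of its members, only miR-203-3p and miR-141-3p had at least 2 times the level of every other library in replicate 2. Over the HFD Sirt3 AKI libraries miR-205-5p spanned 4746 to 6653 normalised CPM and miR-200c-3p 234 to 268.

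The summed red cell list, 10 of 10 tested, went the other way, at 590625, 426997 and 612650 normalised CPM in HFD Sirt3 AKI, 651574 to 743548 in HFD WT and 295638 to 321166 in chow WT. In this list miR-486a and miR-486b have identical counts for each arm in every library, so the same reads are listed under both names. Without miR-486b the sum was 447032, 304974 and 443469 in HFD Sirt3 AKI, 487307 to 566981 in HFD WT and 236179 to 254447 in chow WT. No member of these 3 lists was at 0 in any library. Striated muscle microRNAs summed to 8067, 11964 and 9339 normalised CPM in HFD Sirt3 AKI, 10335 to 11803 in HFD WT and 7081 to 8192 in chow WT. Leukocyte and platelet microRNAs summed to 38991, 31029 and 37603 in HFD Sirt3 AKI and 37637 to 40020.4 in HFD WT, endothelial ones to 27156 to 28305 and 39646 to 41391, and pancreas ones to 595 to 751 and 633 to 757. In chow WT the sums were lower, at 24955.5 to 25481 for leukocytes and platelets, 20325 to 23159.5 for endothelium and 381 to 464 for pancreas. The part of these other tissues in the level of miR-122 was not tested. Of the 414 tested microRNAs, 31 (7.49%) had at least 2 times the level of every other library in HFD Sirt3 AKI replicate 2, and both miR-122 arms were among them.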

How the data were processed

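Small RNA of serum vesicles was measured in 9 libraries, 3 each of HFD Sirt3 AKI, HFD WT and chow WT, grouped by their titles. Per the submitters' processing notes, Bowtie 0.12.2 and the genome build mm8 were used, with no role given. Which microRNA reference, adapter trimmer and counting program served was not found in the labels. The authors deposited whole-number read counts per mature microRNA and a TPM table, in which each value is the deposited count over the library total times 1000000, with no length term.

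Counts were filtered (filterByExpr, minimum count 10, 414 of 1169 kept), scaled by TMM and tested with edgeR 4.0.16 in R 4.3.3 by quasi-likelihood over all 9 libraries, with Benjamini-Hochberg adjustment over the tested microRNAs. The edgeR step was tested on simulated data. Alternatives used DESeq2 1.42.0, limma 3.58.1 on log2(TPM + 1) or log2(TPM + 10), other scalings, filters, covariates and samples. Ratios used exact two-sided permutation tests. Levels are mean ± SD, and Wilson intervals are at 95%.

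The members, lists and comparisons were chosen with earlier results of these data known. The text names both arms, the hepatocyte list, the 6 most correlated microRNAs and the neighbours in abundance. The ratios to miR-194-5p, miR-215-5p, miR-203-3p and miR-9-5p, and the naming of miR-9-5p, were chosen after their values were seen. Depth limits miR-122-3p, with 0 to 52 counts per library. No coordinates are given, since the build of the sequence tables differs from that of the files.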

Additional observations from a re-analysis of the deposited data

How the results depend on the processing

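For miR-122-5p in HFD Sirt3 AKI over HFD WT (1.68 on the log2 scale) the call was lost in a fit of only these groups (1.82, adjusted p = 0.107), with the batch label as a term (0.35), in the larger batch (0.48) and with limma on TPM with 1 (1.72) or 10 added (1.71). Leaving out single libraries gave 0.93 to 2.06. In HFD Sirt3 AKI over chow WT the call was lost with library totals (1.17), in a fit of only these groups (1.51, adjusted p = 0.0515), with the batch term (0.19), in the larger batch (0.39) and with limma on TPM (0.88 with 1 added and 0.88 with 10 added), and single libraries gave 0.90 to 1.91. In HFD WT over chow WT the sign turned without a filter (0.062) and without chow WT replicate 2, with a range of -0.37 to 0.10 over single libraries left out. None of these passed the test in that comparison.

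For miR-122-3p in HFD Sirt3 AKI over HFD WT the value was called without a filter (2.34, adjusted p = 0.0118) and turned to -1.15 with the batch term and -1.02 in the larger batch, with 1.26 to 3.77 over single libraries left out. Over chow WT it turned to -2.26 and -2.05 under the same settings, with 0.30 to 3.16 over single libraries. In HFD WT over chow WT single libraries left out gave -2.50 to 0.80. No value was given for it in that comparison, or in HFD Sirt3 AKI over HFD WT, when only those groups were fitted, since the filter removed it. DESeq2 gave it no adjusted p in HFD Sirt3 AKI over HFD WT.

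The difference in the arm ratio between HFD Sirt3 AKI and HFD WT turned to -0.35 with 5 added to each count and -1.05 in the larger batch, with a range of -0.0024 to 1.28 over single libraries left out. Between HFD Sirt3 AKI and chow WT it was -0.55, against -2.09 with 5 added and -2.08 in the larger batch, with -1.01 to 0.21 over single libraries left out, and between HFD WT and chow WT it ranged from -1.84 to -0.42. The ratio to miR-148a-3p between HFD Sirt3 AKI and chow WT turned to -0.27 in the larger batch, and leaving out single libraries gave 0.11 to 0.64. The causes were not tested.

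Of all tested microRNAs, 37 were called in HFD Sirt3 AKI over HFD WT, against 24 with DESeq2 size factors, 65 by DESeq2, 3 in a fit of only these groups, 1 with the batch term, 23 in the larger batch, and 13 to 102 with single libraries left out. With library totals the split of higher and lower calls changed to 36 and 11 (TMM 6 and 31), in HFD WT over chow WT to 20 and 143 (TMM 89 and 67), and in HFD Sirt3 AKI over chow WT to 40 and 130 (TMM 84 and 81).

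Replicate numbers gave no clear pairing of the libraries. Correlations of same-numbered deviations were -0.0803 to -0.0069 between HFD Sirt3 AKI and HFD WT, -0.0348 to 0.115 between HFD WT and chow WT and 0.0472 to 0.191 between HFD Sirt3 AKI and chow WT. Those of differently numbered libraries were, in the same order, -0.120 to 0.126, -0.0898 to 0.0667 and -0.223 to 0.145. With the replicate block miR-122-5p stood at 1.46 (adjusted p = 0.0469), -0.07 and 1.39 in HFD Sirt3 AKI over HFD WT, HFD WT over chow WT and HFD Sirt3 AKI over chow WT, miR-122-3p at 1.97, -0.89 and 1.08, and 31, 154 and 161 microRNAs were called. The ratios were not tested with a block.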

Other observations

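HFD Sirt3 AKI replicate 2 had at least 2 times the level of every other library for 31 tested microRNAs, which were singled out after their values were seen. Of these, 5 stood at 1000 normalised CPM or more in that library: miR-122-5p at 25944, miR-199a-3p and miR-199b-3p, which have identical counts, at 7052 each, miR-203-3p at 6081 and miR-9-5p at 3754. Relative to HFD Sirt3 AKI replicate 3, of the same batch label, the level in replicate 2 was 2.31 times as high for miR-122-5p, 2.18 times for miR-199a-3p, 2.86 times for miR-203-3p and 3.88 times for miR-9-5p. miR-34a-5p, a target of p53, stood at 541 normalised CPM and miR-127-3p at 641. Less abundant ones included the neuronal miR-124-3p at 195 and miR-137-3p at 133. The order replicate 2 over 3 over 1 was seen in 136 of the 414 tested microRNAs (32.9%) in HFD Sirt3 AKI. The order replicate 2 over 1 over 3 was seen in 91 (22.0%) in chow WT, and 39 (9.42%), miR-122-5p among them, had both orders.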
